A study of Mus musculus with 6 samples.

Results

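The mouse genes named Zfp and a number were followed across spleen arrays of mice given MOTS-c or a control peptide. Members were the probes of the deposited fold-change table whose gene symbol is Zfp, a number and any closing letters or digits. They came to 538 probes of 325 genes, out of 31692 probes in that table. Each gene was read by 1 probe, the one with the highest mean over the authors' 6 normalized columns, among 20902 genes and unnamed probes fitted together. Another 40 Zfp symbols of the array had no probe in that table and were not tested. RefSeq lists 319 of the members as protein coding, 3 as long non-coding RNA (Zfp783, Zfp652os and Zfp335os) and 1 as a transcribed pseudogene (Zfp389), while Zfp607 and Zfp191 were not matched.

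All mice were female NOD, a strain that develops autoimmune diabetes on its own. They were 6 weeks old on entry, were given time to settle, and were treated until the spleen was taken at 18 weeks of age after a fast of 16 to 18 h. The vehicle group received a scrambled version of the peptide every day, and the MOTS-c group received MOTS-c at 0.5 mg/kg/day into the abdominal cavity. MOTS-c is a short peptide encoded in mitochondrial DNA. Each group had 3 one-colour arrays, called vehicle 1 to 3 and MOTS-c 1 to 3. Nothing in the labels states that each array had its own mouse, so errors and p-values cover the spread between these samples, which may be technical. Where a fit has 1 vehicle array, its p-values cover the spread between the MOTS-c arrays only. The comparison asks which spleen transcripts differ after the treatment.

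Most Zfp genes encode proteins with C2H2 zinc fingers, small folds that hold a zinc ion and read DNA bases. In the mouse many of them also carry a KRAB box, which binds the co-repressor Trim28 and, through it, the histone methyltransferase Setdb1. KRAB zinc finger proteins silence transposable elements and some genes, and their genes lie in clusters that grew by local duplication. A smaller group, Zfp36 and its relatives, has CCCH fingers that bind AU-rich messenger RNA and recruit the CCR4-NOT deadenylase. In the spleen single members are known for work in lymphocytes, such as Zfp318 in IgD expression of mature B cells and Zfp335 in T cell maturation.

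Values are log2 Cy3 signals after background subtraction, set against the 75th percentile of the same array (678 to 925.5), so a level of 0 is that percentile. A level depends on the probe and is read only within 1 gene. On each array 61.85% to 63.97% of spots were well above background and 0 were saturated. Every member's probe was well above background on all 6 arrays, because the deposited table lists only such probes. Vehicle 1 stood apart. Its median over the 13 T cell markers lay 1.42 below their means over the 6 arrays, against 0.031 and 0.093 above them on vehicle 2 and 3 and 0.38 to 0.54 above on the MOTS-c arrays. The T cell and B cell markers fitted were well above background too, but any probe of the deposited table is, so this says nothing of the tissue. Vehicle 1 and 2 were on slide 1, and vehicle 3 and the 3 MOTS-c arrays on slide 2, so a comparison free of the slide rests on vehicle 3 alone.

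More of the Zfp genes had higher than lower means with MOTS-c, and no single one passed the test. Of 13 clusters of these genes, 6 on chromosomes 7 and 13 had the highest medians over the 6 arrays, which were smaller within slide 2. Of 325 members, 0 had an adjusted p under 0.05 in limma, as had 0 of all 20902 (0%). The median difference, MOTS-c minus vehicle, was 0.19 over the members, with quartiles of -0.055 and 0.43, and 0.003 over all genes. The mean was higher with MOTS-c in 223 members, or 68.6%, against 50.3% of all genes. All 3 MOTS-c values lay above all 3 vehicle values in 114 members, or 35.1%, against 15% of all genes. They lay below in 29, or 8.92%, against 19.6%. At an unadjusted p under 0.05 limma had 76 members higher, or 23.4% against 10.4% of all genes, and 13 lower, or 4% against 14.7%. The 76 became 46, 45 and 40 without MOTS-c 1, 2 and 3, or 14.2%, 13.8% and 12.3% against 6.48%, 6% and 5.12% of all genes. Without vehicle 3 the 13 became 26 (8% against 16.8% of all genes) and the 29 became 50 (15.4% against 28%).

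Array by array, the members' median deviation from their own means was -0.20 on vehicle 1, -0.033 on vehicle 2 and -0.041 on vehicle 3. It was 0.11, 0.065 and 0.11 on MOTS-c 1, 2 and 3. All 3 MOTS-c arrays were thus above all 3 vehicle arrays in this median, and vehicle 1 was the lowest. Over all genes the same medians ran from -0.019 to 0.031. Without vehicle 1 the members' median difference was 0.14, with 223 members higher in the mean, or 68.6% against 50.6% of all genes. Without it, 56 were higher and 9 lower at an unadjusted p under 0.05, or 17.2% and 2.77%, against 7.19% and 11.2% of all genes.

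**Figure D1:**
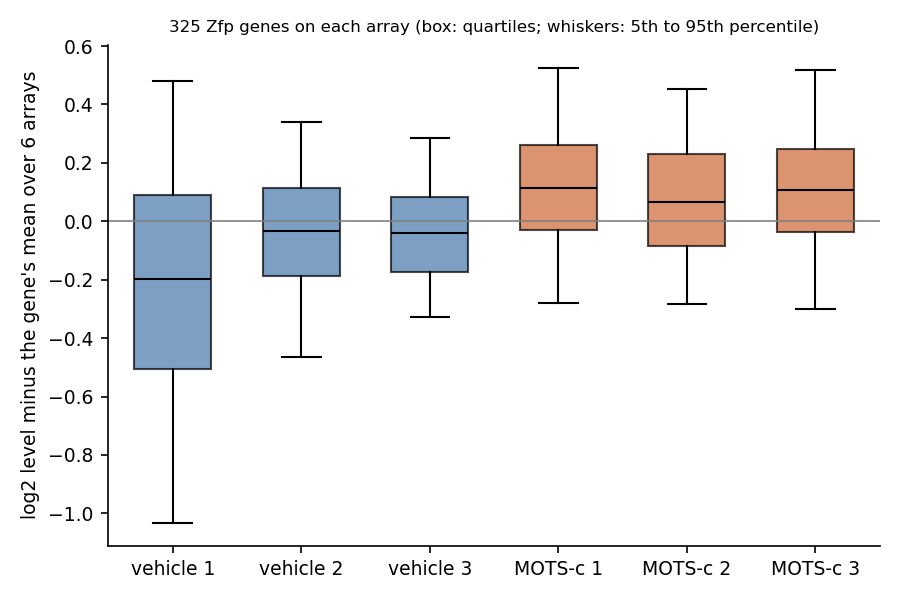
Box plots of the 325 Zfp genes on each of the 6 arrays (vehicle in blue, MOTS-c in orange), as the log2 level minus the gene's mean over the arrays; boxes span the quartiles, the line is the median and whiskers run from the 5th to the 95th percentile. The medians are -0.20, -0.033 and -0.041 on the vehicle arrays and 0.11, 0.065 and 0.11 on the MOTS-c arrays, and vehicle 1 has the widest box.

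Within slide 2, with vehicle 3 as the sole control, the members' median difference was 0.18, against 0.19 over all arrays. There 235 members were higher in the mean, or 72.3% against 51.7% of all genes. The 3 MOTS-c values lay above vehicle 3 in 176 members (54.2% against 33.5% of all genes) and below it in 55 (16.9% against 33.5%). Of the 223 members higher over all arrays, 200 were also higher there, or 89.7% against 82.2% of all genes. Of the 102 lower ones 67 were also lower, or 65.7% against 79.1%. Both differences use vehicle 3 and the 3 MOTS-c arrays, so much of this agreement is built in. With slide as a block limma left 9 members higher and 5 lower at an unadjusted p under 0.05, in place of 76 and 13. These were 2.77% and 1.54% of members, against 1.94% and 7.71% of all genes. The share of higher ones was thus near that of all genes. In the fit of slide 2 alone, vehicle 3 adds no spread of its own. The p-values of that fit rest on the spread between the 3 MOTS-c arrays and do not measure variation between vehicle arrays. With slide 2 alone and 1 vehicle array, 29 were higher and 13 lower, or 8.92% and 4%, against 6.77% and 12.3% of all genes.

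All genes were split into 4 equal bins by mean signal. Among the 68 members of the dimmest bin the median difference was 0.26, and it was 0.26 among the 123 of the next bin. All genes of those bins had medians of 0.040 and 0.092. In the third bin it was 0.15 over 90 members, against 0.037 over all genes. In the brightest bin the 44 members had a median of -0.0003, against -0.13 over all genes. There 10 members lay above and 10 below without overlap, or 22.7% each, against 11.4% and 34.8% of all genes of that bin. In each bin the members' median was above that of all genes.

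**Figure D2:**
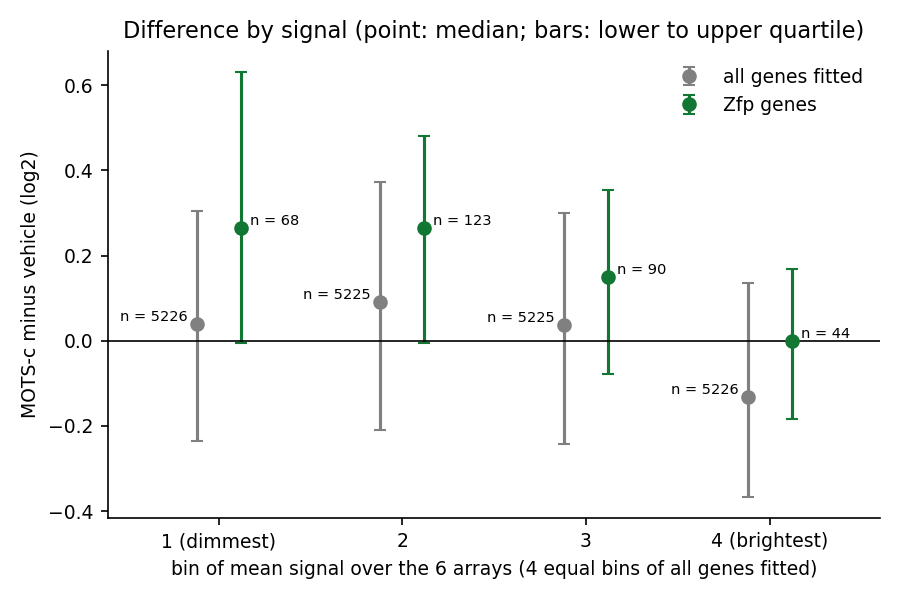
Difference MOTS-c minus vehicle (log2) of all genes fitted (grey) and of the Zfp genes (green) in 4 equal bins of mean signal; points are medians, bars run from the lower to the upper quartile and n is the number of genes. The green medians are 0.26, 0.26, 0.15 and -0.0003 from the dimmest to the brightest bin, each above the grey one of the same bin.

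The 8 members with the highest difference were Zfp82, Zfp455, Zfp583, Zfp60, Zfp882, Zfp933, Zfp661 and Zfp418, all C2H2 genes. Zfp82 (chromosome 7, 30841071 to 30841130 on mm9) had -1.93, -1.12 and -0.21 on vehicle 1, 2 and 3 and 0.043, 0.14 and 0.29 on MOTS-c 1, 2 and 3. The groups do not overlap, yet vehicle 3 was close to the MOTS-c arrays and vehicle 1 far below. The difference was 1.24 ± 0.39 (SE, n = 3 and 3), a 2.36-fold higher mean, with an adjusted p of 0.128 in limma. Within slide 2 it was 0.37.

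Zfp455, a regulator of sex-limitation candidate by its RefSeq synonym, had -4.14, -2.96 and -2.24 with vehicle and -2.01, -1.78 and -1.95 with MOTS-c. Its vehicle values spread over a wide range and its MOTS-c values over a narrow one. The difference was 1.20 ± 0.43, with an adjusted p of 0.154 in limma, and 0.33 within slide 2. Zfp583 had -4.36, -3.62 and -2.49 with vehicle and -2.27, -2.24 and -2.37 with MOTS-c, and Zfp60 had -2.77, -2.01 and -1.04 with vehicle and -0.73, -0.76 and -0.82 with MOTS-c. In both, the groups do not overlap, vehicle 3 came nearest to the MOTS-c arrays and vehicle 1 lay lowest. Their differences were 1.19 ± 0.42 and 1.17 ± 0.39, and 0.20 and 0.27 within slide 2.

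Zfp933 had the smallest adjusted p of these 8, at 0.084 in limma. It had -5.00, -4.38 and -3.92 with vehicle and -3.29, -3.32 and -3.41 with MOTS-c, so its MOTS-c arrays sat together above every vehicle array. The difference was 1.09 ± 0.26, and 0.58 within slide 2. A dimmer probe of the gene gave 0.29. Zfp882 differed by 1.16 ± 0.37, Zfp661 by 1.06 ± 0.39 and Zfp418 by 1.06 ± 0.40. The groups of Zfp661 overlap, since vehicle 3 at -0.23 was above MOTS-c 1 at -0.34. Over the 8 the median difference was 1.17 on all arrays, 0.76 without vehicle 1 and 0.35 within slide 2.

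Outside the rule for named genes, and chosen after their values were seen, 5 more higher members had an adjusted p under 0.1. Together with Zfp933 they made 6 of 325, or 1.85%, against 1.12% of all genes. Zfp366 encodes DC-SCRIPT, a nuclear protein known from dendritic cells. It had -4.30, -4.14 and -4.47 on vehicle 1, 2 and 3 and -3.58, -3.65 and -3.39 on MOTS-c 1, 2 and 3. Every MOTS-c array was above every vehicle array, and the 3 vehicle arrays were close to each other. Its difference was 0.77 ± 0.15 with an adjusted p of 0.0761 in limma, and it was 0.93 within slide 2 and 0.77 without vehicle 1. The other 4 were Zfp607, Zfp566, Zfp446 and Zfp595, with differences of 1.01 ± 0.26, 0.99 ± 0.26, 0.74 ± 0.19 and 0.53 ± 0.14 and adjusted p from 0.0909 to 0.0982 in limma. Within slide 2 these 4 had 0.41, 0.44, 0.53 and 0.42.

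Among the 8 members with the lowest difference, Zfp39, Zfp367, Zfp949 and Zfp646 had an adjusted p under 0.1, which is 1.23% of members against 5.6% of all genes. Zfp39 had 0.29, -0.13 and -0.32 on vehicle 1, 2 and 3 and -1.11, -1.12 and -1.21 on MOTS-c 1, 2 and 3. The MOTS-c arrays were nearly equal and all below the vehicle arrays. The difference was -1.09 ± 0.18 with an adjusted p of 0.0761 in limma, and it was -0.83 within slide 2. Without vehicle 2 it passed the threshold, at -1.13 with an adjusted p of 0.0419, as did Zfp367, Zfp949 and Zfp366. In that fit 1073 of all genes passed.

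Zfp367, whose RefSeq synonyms are ZFF29a and ZFF29b, had 2.61, 1.77 and 2.13 on vehicle 1, 2 and 3 and 0.92, 1.35 and 1.12 on MOTS-c 1, 2 and 3. The groups do not overlap, and vehicle 1 was highest. The difference was -1.04 ± 0.24, a 2.06-fold lower mean, with an adjusted p of 0.079 in limma. Within slide 2 it was -1.0. Its 2 other probes gave -1.13 without overlap and -0.23 with overlap.

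Zfp949 had 0.88, 0.13 and 0.51 with vehicle and -0.36, -0.28 and -0.35 with MOTS-c, with every MOTS-c array below every vehicle array. Its difference was -0.84 ± 0.20 with an adjusted p of 0.084 in limma. All 3 probes of Zfp949 were lower, from -0.96 to -0.84, and the value within slide 2 was -0.85. Zfp646 had 7.32, 6.96 and 6.99 with vehicle and 6.40, 6.56 and 6.22 with MOTS-c, again without overlap. Its difference was -0.70 ± 0.17 with an adjusted p of 0.084 in limma, and -0.59 within slide 2. A dimmer probe of Zfp646 was higher by 0.22 with overlapping groups, so the probes of this gene disagree.

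Zfp787 had the lowest difference of all members, at -1.28 ± 0.42, and an adjusted p of 0.137 in limma. Its values were 2.48, 1.95 and 0.66 with vehicle and 0.39, 0.31 and 0.55 with MOTS-c. Vehicle 1 and 2, both on slide 1, were high, while vehicle 3 lay close to the MOTS-c arrays, and within slide 2 the difference was -0.24. A further probe gave -1.60 with its vehicle arrays in the same order, and a dim one gave 0.30. Zfp821 differed by -0.58 ± 0.18 and Zfp91, a ubiquitin ligase of the NF-kappaB pathway, by -0.57 ± 0.19. Both had every MOTS-c array below every vehicle array. Zfp941 differed by -0.59 ± 0.34, with overlapping groups and a difference of 0.073 within slide 2.

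**Figure D3:**
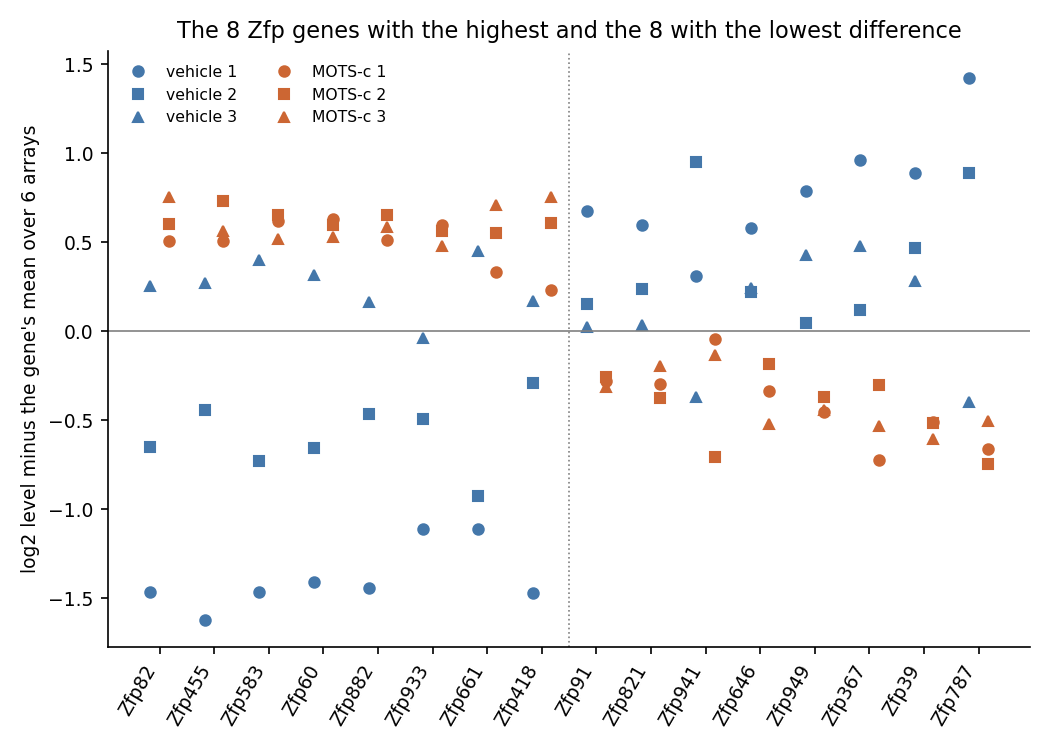
The 8 Zfp genes with the highest and the 8 with the lowest difference, as the log2 level on each array minus the gene's mean over the 6 arrays (vehicle in blue, MOTS-c in orange, the shape giving the number of the array). In the 8 highest, the 3 MOTS-c arrays lie close together with vehicle 3 next to or, in Zfp661, among them and vehicle 1 lowest, whereas in Zfp39, Zfp367, Zfp949 and Zfp646 vehicle 3 lies with the other vehicle arrays.

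**Figure D4:**
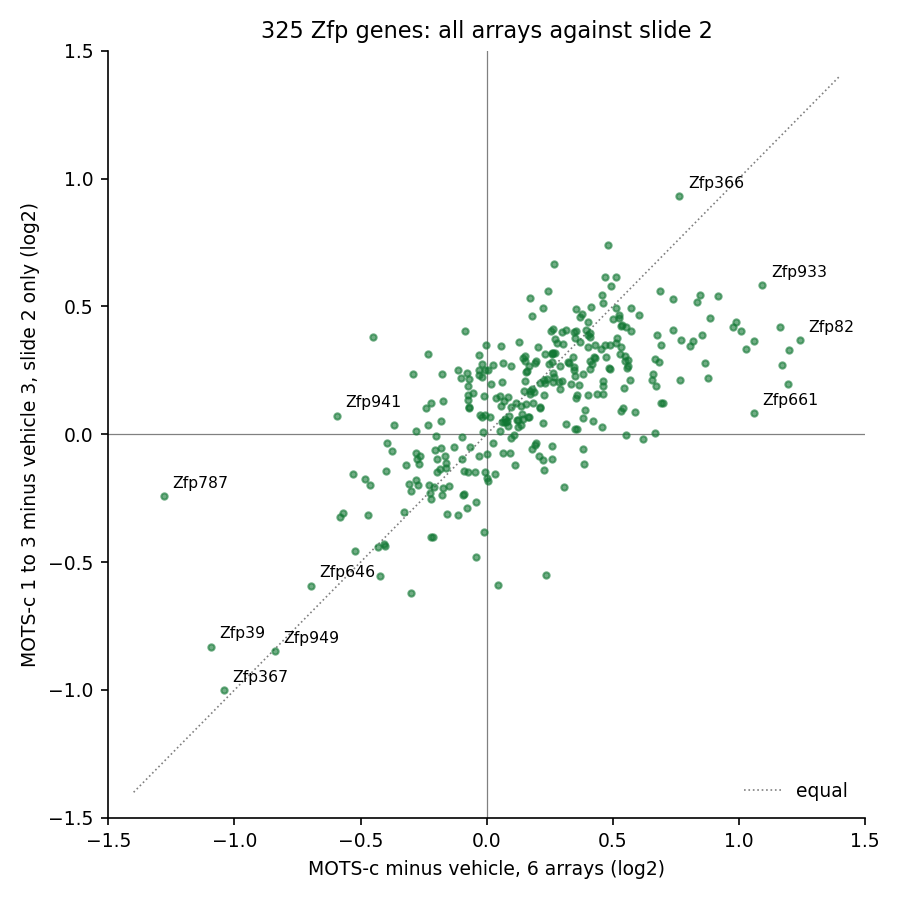
Each point is 1 of 325 Zfp genes, with MOTS-c minus vehicle over all 6 arrays (log2) on the x axis and MOTS-c 1 to 3 minus vehicle 3, within slide 2, on the y axis; the dotted line marks equal values, and the axes share 4 arrays. Zfp39, Zfp367, Zfp949, Zfp646 and Zfp366 lie near the line, and Zfp82, Zfp661 and Zfp787 lie much nearer to 0 on the y axis.

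The size of the differences varied between gene clusters. Members within 500 kb of the next were joined into clusters of at least 5, a rule chosen after the data were seen. It gave 13 clusters with 126 members, which had a median of 0.28, and 86 of them had higher means. Without overlap 56 were above and 13 below, or 44.4% and 10.3%, against 15% and 19.6% of all genes. The 199 members outside had a median of 0.15, and 137 had higher means. Of them 58 were above and 16 below, or 29.1% and 8.04%. Higher means were thus about as frequent inside clusters (68.3%) as outside (68.8%). A cluster on chromosome 13 (67139715 to 67927746 on mm9) held 18 members with a median of 0.53. Of these 18, 16 had higher means, 12 lay above without overlap, or 66.7%, and 0 below. Its members include 6 regulator of sex-limitation candidates by RefSeq synonym, Zfp455, Zfp457, Zfp458, Zfp595, Zfp58 and Zfp748, with differences from 0.53 to 1.20, all without overlap. Genes of this kind take their name from loci that control male-specific transcripts in liver.

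In the chromosome 13 cluster the members' median deviation was -0.62, -0.25 and 0.081 on vehicle 1, 2 and 3 and 0.25, 0.27 and 0.27 on the MOTS-c arrays. The MOTS-c arrays were nearly equal, and the vehicle arrays covered most of the spread. The 4 other genes fitted inside its bounds had a median of 0.45, while the 763 other genes of chromosome 13 had -0.013. Its median was 0.36 without vehicle 1 and 0.24 within slide 2. The lower members were Zfp493 and Zfp874b, at -0.075 and -0.22, both overlapping.

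On chromosome 7 the members were spread over 7 clusters. The one at 30566378 to 30945637 (mm9) held 15, among them Zfp82, Zfp420, Zfp566, Zfp383, Zfp260 and Zfp568, with a median of 0.55. Of its 15 members 14 had higher means. Without overlap 9 lay above, or 60%, and 0 below, against 15% and 19.6% of all genes. Its median deviations were -0.64, -0.31 and 0.046 on vehicle 1, 2 and 3 and 0.22, 0.29 and 0.27 on the MOTS-c arrays. Here too vehicle 3 was nearest to the MOTS-c arrays. The median was 0.43 without vehicle 1, 0.83 without vehicle 3 and 0.30 within slide 2. The 2 other genes fitted inside its bounds had a median of 0.38, and the 1416 other genes of chromosome 7 had 0.018.

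Of the other chromosome 7 clusters, those at 6094005, 13000911, 24892175 and 28536647 had medians of 0.54, 0.46, 0.49 and 0.44 over 5, 6, 11 and 7 members. The first of these holds both Zfp583 and Zfp787, among the highest and the lowest of all members. Other genes fitted inside the same clusters had medians of -0.81, 0.44, 0.081 and -0.038, over 2, 6, 20 and 14 genes. The clusters at 4871046 and 134381491 had 0.17 and -0.15 over 6 and 10 members, the latter with Zfp646. The pair on chromosome 17 held 19 and 11 members with medians of 0.076 and -0.11, and those on chromosomes 6, 8 and 9 had -0.058, 0.19 and -0.16. Medians of 0.44 to 0.55 were thus seen in 6 of 13 clusters, all on chromosomes 7 and 13, and the same 6 had 0.18 to 0.35 within slide 2. There all 13 clusters had medians above 0, from 0.038 on chromosome 9 to 0.35, and the cluster on chromosome 6, at 0.27, was above that on chromosome 13, at 0.24. The other 7 clusters had 0.038 to 0.27 there, so their medians overlapped with those of the 6. Over all arrays, other genes fitted inside these 7 had medians from -0.15 on chromosome 6 to 0.75 on chromosome 17. The members of those clusters had -0.058 and -0.11.

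**Figure D5:**
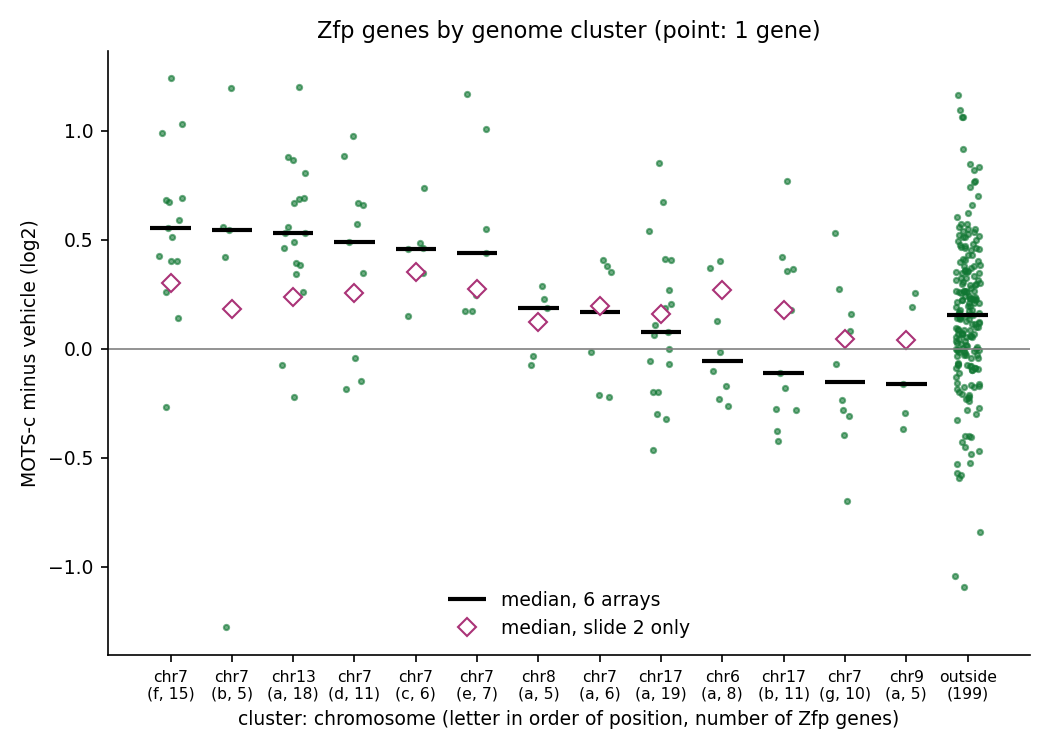
Difference MOTS-c minus vehicle (log2) of each Zfp gene (green points) in 13 clusters and outside them, with the median over all arrays (black line) and the median within slide 2 (open diamond). The 6 clusters at the left, on chromosomes 7 and 13, have medians of 0.44 to 0.55 over all arrays and diamonds at 0.18 to 0.35.

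Some promoters of these members share a run of letters. RefSeq promoter windows (GRCm38.p6, 250 bases before to 50 after the start) were given for 266 members, 325 windows in all. The run of 12 bases found in more member windows than any other, on either strand, was ACTACATTTCCC. It was sought after the data were seen. It stood in 27 member windows, or 8.31%, against 166 of 32851 windows of all genes, or 0.505%. The 166 include these 27. Since the run was picked for being the most common in member windows, a higher share there was favoured by the choice and is no test. The 36-base windows below are a selection from the clusters just described. All genes shown lay above without overlap, and the overlapping ones are left out. Of the 22 members with the run in clusters, 15 lay above without overlap. The shared run is in capitals, and each window is read along the strand that holds it:
Zfp60: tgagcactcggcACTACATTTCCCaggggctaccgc
Zfp420: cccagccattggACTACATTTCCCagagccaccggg
Zfp566: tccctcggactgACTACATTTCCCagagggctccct
Zfp458: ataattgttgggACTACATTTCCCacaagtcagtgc
Zfp383: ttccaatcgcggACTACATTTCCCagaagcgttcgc
Zfp273: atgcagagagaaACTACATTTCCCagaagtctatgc
Zfp595: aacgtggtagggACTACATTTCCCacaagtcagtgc
Zfp84: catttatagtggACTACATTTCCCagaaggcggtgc

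The window of Zfp60 lies at chr7:27731332-27731367, that of Zfp566 at chr7:30090563-30090598 and that of Zfp595 at chr13:67332588-67332623, on GRCm38.p6. Over the 28 places found, the run began a median of 54.5 bases before the start, within a range of 2 to 224, and lay on the gene's strand in 8 and on the opposite one in 20. The 27 members with it had a median difference of 0.53, and 26 had higher means. Of them 17 lay above without overlap, or 63%, and 0 below, against 15% and 19.6% of all genes. Among the 239 members without it 76 lay above, or 31.8%, and 25 below, with a median of 0.16.

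Most of these 27 sit in the clusters with the higher medians: 9 in the chromosome 13 cluster, 9 in the chromosome 7 cluster with Zfp82 and 2 in each of the neighbouring chromosome 7 clusters starting at 24892175 and 28536647. In those 4 clusters the 22 members with the run had a median of 0.63 and the 21 without it 0.51. Elsewhere it was 0.21 over 5 members with it and 0.14 over 218 without. The 102 fitted genes outside the Zfp members with the run had a median of 0.068. Within slide 2 the 27 members had 0.27. The one lower member with the run was Zfp874b. A match is a description of letters and names no factor.

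The genes whose windows are printed differ in how their arrays lie. Zfp420 had -3.04, -2.82 and -1.89 with vehicle and -1.74, -1.45 and -1.47 with MOTS-c, and Zfp458 had -3.19, -2.50 and -1.86 with vehicle and -1.57, -1.69 and -1.66 with MOTS-c. In both, the MOTS-c arrays were above every vehicle array, and vehicle 3 was near them. The differences were 1.03 ± 0.30 and 0.88 ± 0.31, with 0.33 and 0.22 within slide 2. Zfp595 had 0.44, 0.71 and 0.74 with vehicle and 1.19, 1.15 and 1.14 with MOTS-c. There all 3 vehicle arrays were well below the nearly equal MOTS-c arrays, and the difference of 0.53 ± 0.14 was 0.42 within slide 2. Zfp383 had -2.28, -1.87 and -1.56 with vehicle and -1.12, -1.39 and -1.11 with MOTS-c, and Zfp273 had -2.38, -1.51 and -1.75 with vehicle and -1.11, -1.18 and -1.28 with MOTS-c, both without overlap. Their differences of 0.69 ± 0.21 and 0.69 ± 0.23 were 0.35 and 0.56 within slide 2. Zfp84 had the smallest difference of the genes shown, 0.40 ± 0.21, with MOTS-c 3 at 0.84 just above vehicle 3 at 0.81.

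Zfp566 shows a whole window of this kind, chr7:30090461-30090760 on the minus strand of GRCm38.p6, with the run in capitals 76 bases before the start and 14 CpG pairs:
Zfp566: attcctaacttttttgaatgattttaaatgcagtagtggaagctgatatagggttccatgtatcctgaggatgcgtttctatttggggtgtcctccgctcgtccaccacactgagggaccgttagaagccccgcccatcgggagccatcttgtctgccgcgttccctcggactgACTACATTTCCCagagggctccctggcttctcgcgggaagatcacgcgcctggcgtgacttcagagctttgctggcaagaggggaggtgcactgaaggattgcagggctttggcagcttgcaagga
It had -1.44, -1.16 and -0.47 with vehicle and -0.28, 0.073 and 0.10 with MOTS-c. Vehicle 1 and 2 were far below the MOTS-c arrays and vehicle 3 somewhat below.

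Zfp367, lower with MOTS-c, has another kind of promoter. Its window chr13:64153150-64153449, on the minus strand of GRCm38.p6, holds 36 CpG pairs and the E2F-like run TTTCGCGC, read on the other strand as the capitals GCGCGAAA, 19 bases before the start:
Zfp367: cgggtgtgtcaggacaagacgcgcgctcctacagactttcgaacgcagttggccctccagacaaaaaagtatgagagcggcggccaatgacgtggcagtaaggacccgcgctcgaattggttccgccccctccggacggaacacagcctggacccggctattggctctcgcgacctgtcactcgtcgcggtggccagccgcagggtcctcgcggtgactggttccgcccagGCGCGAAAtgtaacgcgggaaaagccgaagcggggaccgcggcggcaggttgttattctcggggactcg
It was the 1 member with that run, or 0.308% of member windows against 0.323% of all, and a second Zfp367 window at 64152324 to 64152623 lacks it. Member windows were richer in CpG pairs than all windows, with medians of 15 and 7. Windows of members above without overlap had 12, and of those below 19.5.

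Other runs were common to members in both directions. The ETS-like run CCGGAAG stood in 21.2% of member windows and 8.86% of all, the CCAAT box in 44.3% and 37.4%, the GC box GGGCGG in 46.8% and 35.7%, and the TATA box TATAAA in 7.08% and 13.6%. Members with and without the ETS-like run had medians of 0.22 and 0.18, and the CCAAT box gave 0.19 and 0.18. Members without a GC box had 0.25 and those with one 0.13. For the TATA box the medians were 0.30 over 22 members with it and 0.18 over the others.

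Members with known roles were described as a panel chosen for those roles, and none of its 27 measured genes passed the threshold in limma. Zfp36, or tristetraprolin, had 2.28, 1.87 and 1.53 with vehicle and 2.50, 1.77 and 1.93 with MOTS-c. Zfp36l1 had 5.04, 4.95 and 5.14 with vehicle and 5.54, 4.90 and 5.19 with MOTS-c, and Zfp36l2 had 5.08, 4.59 and 5.33 with vehicle and 5.76, 4.35 and 5.56 with MOTS-c. In all 3 genes MOTS-c 1 was the highest array and the groups overlap. The differences were 0.17 ± 0.26, 0.17 ± 0.19 and 0.22 ± 0.38. Their partners in mRNA decay, CCR4-NOT subunits and decapping factors, had a median of -0.019 over 24 genes. Of these, 0 lay above and 4 below without overlap, or 0% and 16.7%, against 15% and 19.6% of all genes. In limma 0 passed the threshold. At an unadjusted p under 0.05 limma had 0 higher and 3 lower, where all genes had 10.4% and 14.7%. Rqcd1, a CCR4-NOT subunit now named Cnot9, had -0.56 ± 0.21, Cnot6 -0.48 ± 0.19 and the poly(A)-binding protein Pabpc1 -0.53 ± 0.17.

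Among members known from lymphocytes, Zfp318 differed by 0.26 ± 0.22 and Zfp335 by 0.14 ± 0.14, both with overlapping groups. Zfp608, which represses Rag genes in thymocytes, had 3.67, 3.16 and 3.31 with vehicle and 2.86, 2.87 and 2.84 with MOTS-c. Its MOTS-c arrays were nearly equal and below every vehicle array, and the difference was -0.52 ± 0.17 with an adjusted p of 0.129 in limma. The 3 dimmer probes of Zfp608 were higher instead, up to 0.44, all with overlap, so this gene has no single direction here. Zfp609, its relative that works with the cohesin loader, differed by -0.16 ± 0.15. Zfp521, a co-factor of blood progenitors that opposes Ebf1, and Zfp423, its relative that also binds Ebf1, had 0.11 ± 0.26 and 0.053 ± 0.21, with overlap.

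Zfp410, which acts almost entirely by activating Chd4, had 0.88, 0.081 and 0.50 with vehicle and -0.0089, 0.044 and 0.13 with MOTS-c. MOTS-c 3 lay above vehicle 2, so the groups overlap, and the difference was -0.43 ± 0.21. Chd4 itself, the remodeller of the NuRD complex, differed by 0.21 ± 0.17. Zfp143, an activator that binds many promoters, had -0.17, -0.61 and -0.85 with vehicle and -1.05, -0.92 and -1.09 with MOTS-c, with every MOTS-c array below every vehicle array. The difference was -0.48 ± 0.20 with an adjusted p of 0.185 in limma. The transcription factors Zfp281, Zfp148 and Zfp292 were a little higher without overlap, by 0.29 ± 0.14, 0.16 ± 0.13 and 0.14 ± 0.14. Zfp384 differed by 0.026 ± 0.20.

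For members of RNA and protein quality control the differences were small. Zfp622 and Zfp593, which act in the maturation of the large ribosomal subunit, were higher by 0.23 ± 0.13 and 0.38 ± 0.14, without overlap. Zfp593 had 0.15, 0.22 and 0.040 with vehicle and 0.51, 0.38 and 0.64 with MOTS-c, and its adjusted p was 0.161 in limma. Zfp598, the ligase that marks collided ribosomes, had -0.028 ± 0.15. The SUMO ligase Zfp451 had 0.21 ± 0.14, the splicing factor Zfp326 0.024 ± 0.17 and Zfp385a -0.090 ± 0.14, with overlap in all 3. Zfp106, an RNA-binding protein of motor neurons and muscle, was higher by 0.17 ± 0.13 without overlap, though its 4 probes ran from -0.26 to 0.17. Zfp207, a spindle protein also called BuGZ, had -0.043 ± 0.33 with overlap.

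Of KRAB members with a known target, Zfp568, which represses a placental promoter of Igf2, had 0.51, 0.62 and 0.51 with vehicle and 0.93, 0.98 and 0.94 with MOTS-c. Both groups were tight and did not overlap, with a difference of 0.40 ± 0.13, an adjusted p of 0.126 in limma and 0.44 within slide 2. Zfp809, which silences retroviruses by their primer binding site, had -1.89, -2.08 and -1.67 with vehicle and -1.61, -1.52 and -1.43 with MOTS-c. It was higher by 0.36 ± 0.15, also without overlap. Zfp57 and Zfp640 had no probe in the table.

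The co-repressors that KRAB proteins use had a median difference of -0.11 over 32 genes. Of these, 5 lay above and 9 below without overlap, or 15.6% and 28.1%, against 15% and 19.6% of all genes. In limma 0 passed the threshold. At an unadjusted p under 0.05 limma had 4 higher and 6 lower, where all genes had 10.4% and 14.7%. Trim28 had 4.19, 4.13 and 4.02 with vehicle and 4.03, 4.14 and 4.10 with MOTS-c. Its groups overlap, with a difference of -0.026 ± 0.13. Setdb1 had -0.47 ± 0.27 with overlap. The DNA methyltransferase Dnmt1 had -0.81 ± 0.20 and its partner Uhrf1 -1.24 ± 0.30, both below without overlap and both with an adjusted p of 0.0858 in limma. On the higher side were the histone methyltransferases Ehmt1 and Ehmt2, at 0.41 ± 0.14 and 0.42 ± 0.16, and the remodeller Chd3 at 0.61 ± 0.25.

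The 5 members with the brightest probes were Zfp628, Zfp937, Zfp408, Zfp646 and Zfp658. Except for Zfp646, described above, their differences were small and below 0, from -0.21 for Zfp628 to -0.16 for Zfp937. With quantile normalization Zfp937 and Zfp658 were instead above 0, at 0.012 and 0.024. Brightness can come from the probe. The probe of Zfp408 shares the run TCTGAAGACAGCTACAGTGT with 11 probes of other symbols or without one, and that of Zfp937 shares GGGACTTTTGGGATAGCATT with Zfp950, so their signals can hold other transcripts.

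Over all members, 23 probes shared a run of 20 bases with a probe of another symbol or an unnamed one, 13 of them with another member. Their median difference was 0.12, and it was 0.20 over the 302 that shared none, of which 208 had higher means. Of the 146 members with several probes, 105 had all probes on 1 side of 0 and 41 had probes on both sides. In the authors' deposited table a p-value under 0.05 went with 39 higher and 6 lower of the 325 members, each read by 1 probe. Of all 31692 probes 4261 had one, and 0 had an adjusted one under 0.05. The 4261 were not split by direction, so neither the 39 nor the 6 has a matching share of all probes. Whether more members than other probes had such a p-value was not tested.

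Other families named for zinc fingers were set beside the members. The 41 Zbtb genes, whose BTB domain also recruits co-repressors, had a median of 0.19, with 33 higher means. Of these genes 12 lay above and 4 below without overlap, or 29.3% and 9.76%, against 15% and 19.6% of all genes. The 10 Zscan genes had 0.38 and the 9 Zkscan genes 0.037. The 15 Klf genes had -0.13, with 1 above and 3 below (6.67% and 20%), the 15 Zc3h genes 0.14 and the 21 Zdhhc genes -0.027. The Zbtb median thus equalled that of the Zfp genes to 2 decimals, and whether the families differ was not tested.

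Markers of several cell types differed between the groups as well. All 13 T cell markers were higher without overlap, with a median difference of 0.88. All 11 B cell markers were higher in the mean, with a median of 0.69, and 4 lay above without overlap, or 36.4% against 15% of all genes. All 15 erythroid and all 15 cell cycle genes were lower without overlap, with medians of -1.29 and -1.14. In none of these lists did a gene pass the threshold in limma. At an unadjusted p under 0.05 were 3 of the T cell, 2 of the B cell and all of the erythroid and cell cycle genes. Of all genes 10.4% were higher and 14.7% lower at that level. The erythroid median deviation was 0.16 to 1.03 on the vehicle arrays and -0.75 to -0.47 on the MOTS-c arrays. The T cell one was -1.42 to 0.093 and 0.38 to 0.54.

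Vehicle 1 was the array with the lowest T cell, B cell and Zfp medians. In B cell markers the deviations were -1.19, 0.26 and -0.14 on vehicle 1, 2 and 3 and 0.42, 0.24 and 0.42 on the MOTS-c arrays, within the range of the MOTS-c arrays for vehicle 2. The chromosome 7 cluster with Zfp82 was below all MOTS-c arrays on vehicle 2 and nearest to them on vehicle 3. Macrophage, stroma, megakaryocyte and neutrophil markers had medians of 0.087, 0.22, 0.16 and 1.05 with overlap in every gene. The 6 NK and cytotoxic markers had 1.18, with 2 above without overlap, or 33.3% against 15% of all genes. Their median deviations were -1.72, 0.18 and 0.035 on vehicle 1, 2 and 3 and 0.65, 0.65 and 0.28 on the MOTS-c arrays. Transcripts of pancreatic acinar cells varied most, with deviations of 1.59, -1.93 and 4.99 on vehicle 1, 2 and 3 and -2.03, -3.02 and 0.29 on the MOTS-c arrays, so vehicle 3 was the highest. Vehicle 3 is also the sole control within slide 2, and the bearing of its acinar transcripts on those values was not tested. The part of cell composition in the Zfp values was not tested either. In whole spleen, fewer cells of a type and less RNA per cell cannot be told apart.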

How the data were processed

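Per the file headers, each Cy3 array was read with Agilent Feature Extraction 11.0.1.1, which gave a background-subtracted signal intensity per spot, with probe coordinates on mm9. The authors' deposited table holds their quantile-normalized log2 values, a signed fold kept as a score, and a p-value per probe. Here log2 intensity minus the array's 75th percentile was fitted with limma 3.58.1 in R 4.3.3 (lmFit, eBayes, two-sided, Benjamini-Hochberg over 20902 genes and unnamed probes, threshold 0.05), after 97 to 145 outlier spots per array were left out. An exact permutation p for 3 against 3 arrays is at least 0.1, so none was run. Tested on simulated data for this comparison (20902 genes), limma found 38 of 100 genes altered by 1 on the log2 scale, 85 of 100 altered by 2, and 4 that were not altered.

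Members, gene lists, clusters and motifs were chosen with earlier results of these data known. Named are the 8 highest and 8 lowest members, the 5 brightest, a panel of 29 members with known roles (27 measured), and others where the text says so. Group and number come from the titles; 2 descriptions give another number. Promoters come from RefSeq, GRCm38.p6. Alternatives changed the scaling, background correction, filter, probe rule, variance model, slide, replicate block and single arrays.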

Additional observations from a re-analysis of the deposited data

How the results depend on the processing

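The members' median difference stayed above 0 in all 17 alternatives, at 0.168 to 0.211 under other scalings, and at 0.14 (without vehicle 1) to 0.23 (without vehicle 2) with 1 array left out. Minus the median of all genes it was 0.14 to 0.23 with 1 array left out. The replicate block, the variance model and the filters leave the members' differences unchanged by construction, so their agreement is no support. Slide 1 holds only vehicle arrays, so slide as a block and slide 2 only give the same differences by construction. They are thus not separate results among the 17 alternatives. The limit is the slide: with slide as a block, 9 members were higher and 5 lower at an unadjusted p under 0.05 (against 1.94% and 7.71% of all genes), and the medians of the chromosome 13 cluster, the chromosome 7 cluster and the members with the promoter run were 0.24, 0.30 and 0.27. Slide 2 only, chosen after seeing the data, gave the same 3 medians, with 176 members above and 55 below without overlap and, with 1 vehicle array, 29 higher and 13 lower at an unadjusted p under 0.05 (8.92% and 4% against 6.77% and 12.3% of all genes). With 1 vehicle array, the p-values of slide 2 only do not measure variation between vehicle arrays. An empirical Bayes fit with trend and robust called 2 members, Zfp39 and Zfp646, among 494 of all genes.

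With 1 array left out, 0 to 4 members were called; the 4 were Zfp39, Zfp366, Zfp949 and Zfp367, without vehicle 2. Members above without overlap numbered 121 to 144 (37.2% to 44.3%, against 17% to 24.2% of all genes). Those below numbered 32 to 50 (9.85% to 15.4%, against 20.6% to 28%). At an unadjusted p under 0.05 limma had 40 to 93 higher (12.3% to 28.6%, against 5.12% to 13.8%). It had 9 to 26 lower (2.77% to 8%, against 9.56% to 16.8%). The fewest higher ones were left without MOTS-c 3, and the most lower ones without vehicle 3. The cluster medians were 0.36 to 0.64 (chromosome 13) and 0.43 to 0.83 (chromosome 7), and that of members with the promoter run 0.35 to 0.64. Of the 45 named members 15 changed sign somewhere, none of them past the threshold, and the cause was not tested. Quantile normalization gave Zfp384 -0.025, Zfp598 0.0091, Zfp207 0.19, Zfp937 0.012, Zfp658 0.024. The authors' normalized columns gave Zfp384 -0.016, Zfp598 0.0079, Zfp207 0.19, Zfp937 0.014, Zfp658 0.023. Normexp gave Zfp384 -0.034, Zfp598 0.010, Zfp207 0.22, Zfp937 0.022, Zfp658 0.034, Zfp408 0.015. Slide as a block and slide 2 only gave Zfp36l2 -0.10, Zfp521 -0.12, Zfp384 -0.033, Zfp598 0.077, Zfp941 0.073. The mean of all probes gave Zfp106 -0.091, Zfp384 -0.073, Zfp937 0.063, Zfp608 0.14. With 1 array left out the ranges were -0.17 to 0.27 for Zfp521, -0.37 to 0.18 for Zfp207, -0.14 to 0.16 for Zfp384, -0.044 to 0.37 for Zfp36, -0.10 to 0.15 for Zfp326, -0.045 to 0.66 for Zfp36l2, -0.0003 to 0.32 for Zfp36l1, -0.15 to 0.23 for Zfp423, -0.14 to 0.039 for Zfp598.

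Deviations from the group means of same-numbered arrays correlated at -0.19, 0.016 and -0.072 over genes. Those of differently numbered arrays correlated at -0.15 to 0.19. With so few arrays, centred within each group, these values cannot decide whether the replicate numbers pair them. With the replicate block 0 members were called. In that limma fit 61 were higher and 9 lower at an unadjusted p under 0.05 (18.8% and 2.77% against 8.87% and 12.1% of all genes). The median of 0.19 is unchanged by construction, since the block is balanced. A split by KRAB box was not run, since no protein sequences were used here, and normexp used median foreground signals.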
